A study of Mus musculus with 2 samples.

Results

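The integrin chains, the laminin chains and 5 matrix proteins that stand with them (the nidogens Nid1 and Nid2, the perlecan gene Hspg2, the fibronectin gene Fn1 and the tenascin C gene Tnc) were followed on 2 Affymetrix arrays, 1 of fibroblasts homozygous for the Phc2 change L307R and 1 of wild-type fibroblasts. Members were taken by gene symbol alone, as every probe set of the deposited table whose only platform symbol was one of these genes. This gave 86 probe sets of 45037 other than controls, and 40 genes of 18193. Phc2 belongs to Polycomb repressive complex 1, which keeps developmental genes silent. L307R replaces a leucine in the SAM domain through which Phc2 polymerises. Both cultures were embryonic fibroblasts of the strain C57BL/6 from embryonic day 12.5 at passage 1, one with the genotype Phc2 L307R/L307R and the other wild type, grown in medium with fetal calf serum on gelatin-coated dishes. The labels name no separate cultures, litters or clones behind either array, so each difference below is one between 2 cultures, without replicate error and without a test.

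Integrins are cell surface receptors made of one alpha and one beta chain. The alpha chain largely sets the ligand, and the beta chain connects through talin and kindlin to the actin cytoskeleton. Laminins are trimers of an alpha, a beta and a gamma chain that polymerise on the cell surface into the sheet of the basement membrane, where nidogens and perlecan tie them to collagen IV. Fibronectin is the main fibrillar integrin ligand of fibroblast matrix, and tenascin C is a matrix protein of developing connective tissue and wounds. Cultured fibroblasts spread and pull on their substrate through such contacts.

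The array signal is linear, scaled by the authors, and describes 1 probe set. Signals of different probe sets are not on a common scale, so genes are compared below by their ratios and not by their levels. A gene was represented by its brightest probe set. The floor, the higher of the 2 arrays' median signals, was 94.8, and a signal under it was raised to it, so that the ratio is then a bound. A gene counted as measured when either array exceeded the floor at its brightest probe set. This was so for 28 of the 40 members, 27 of them on both arrays. Ratios are log2 ratios, Phc2 L307R over wild type. The only spread at hand is that of log2 ratios between measured probe sets of one gene. Its SD was 0.32 over 17 members with at least 2 such probe sets and 0.32 over 5460 genes of the whole array. It holds neither the spread between cultures nor an error shared by all probe sets of an array. The arrays had medians of 94.3 for Phc2 L307R and 94.8 for wild type, and their signals had a Spearman correlation of 0.955. The 10 fibroblast markers were all measured, among them Col1a1, Col1a2, Col3a1, Thy1 and Vim.

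As a set, the members differed little between the genotypes. The 28 measured members had a median log2 ratio of 0.04, against 0.06 for all 11408 measured genes, and 16 lay above 0 and 12 below. Among all measured genes 59.1% lay above 0. Only Hspg2 was at least 1.5-fold higher in Phc2 L307R, where 4.20% of all measured genes were, and no member was at least 1.5-fold lower, where 3.25% of all were. No member reached a 2-fold difference in either direction, which 1.11% of all measured genes did. Within the set, the integrin chains and the matrix genes lay apart in their medians. The 16 measured integrin chains had a median of -0.07, with 7 above 0 and 9 below, and the 12 measured laminin and other matrix genes had a median of 0.23, with 9 above 0 and 3 below. The integrin median turned to 0.05 when a gene's measured probe sets were averaged, and the matrix median was then 0.08. The difference between these medians has no replicate behind it and was not tested.

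**Figure D1:**
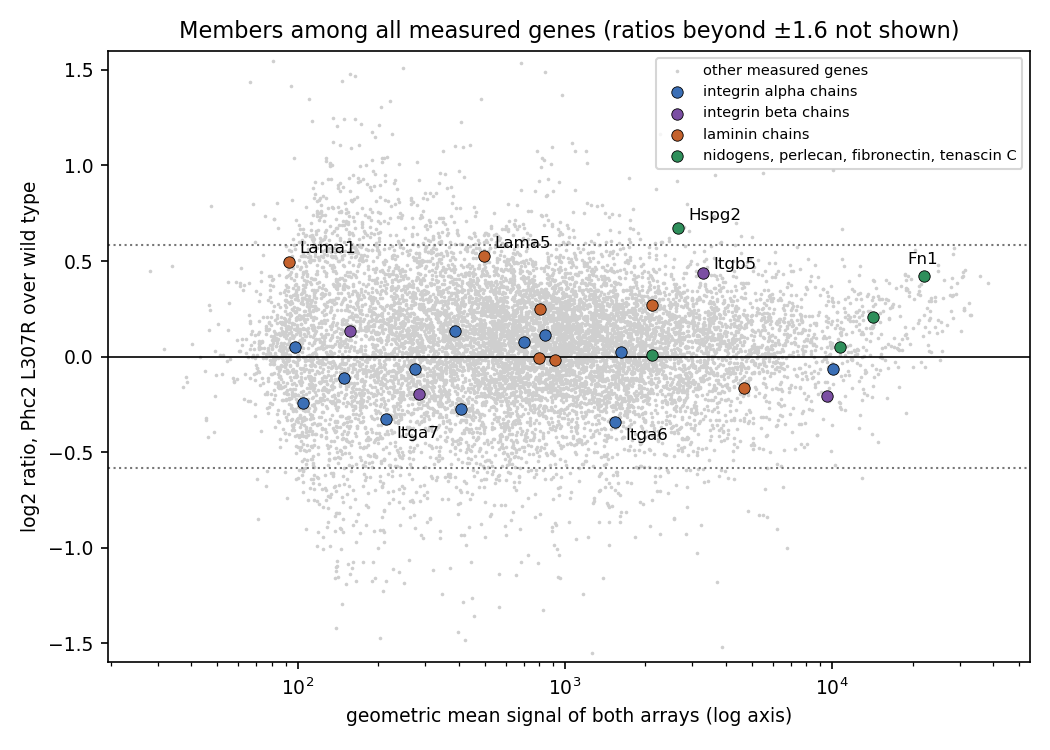
Log2 ratio, Phc2 L307R over wild type, against the geometric mean signal of both arrays (log axis) for the 28 measured members (coloured by class) and all other measured genes (grey), with dotted lines at 1.5-fold. Hspg2 is the only member beyond a dotted line, and the other members lie within the cloud of all genes.

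Promoter sequences are shown for the 3 highest members above the floor on both arrays that have an entry in the RefSeq promoter table (Hspg2, Lama5 and Itgb5) and for the lowest such member, Itga3. Each is the 250 bases before the start annotated in that promoter table, on the gene's strand, in build GRCm38.p6. The windows lie, in that order, at chr4:137468553-137468802 (plus strand), chr2:180225860-180226109 (minus strand), chr16:33829415-33829664 (plus strand) and chr11:95076715-95076964 (minus strand). For Hspg2 the RefSeq gene table places the start of the gene at 137468751, inside the window shown. Capitals mark GC boxes, the letters GGGCGG or their complement CCGCCC, which the Sp1 family is known to bind.
Hspg2: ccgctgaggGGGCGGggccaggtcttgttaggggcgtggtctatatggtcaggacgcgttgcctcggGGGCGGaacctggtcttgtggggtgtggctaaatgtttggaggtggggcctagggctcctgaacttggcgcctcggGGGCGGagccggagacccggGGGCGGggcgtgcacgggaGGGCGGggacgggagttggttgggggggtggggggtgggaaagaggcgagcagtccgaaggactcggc
Lama5: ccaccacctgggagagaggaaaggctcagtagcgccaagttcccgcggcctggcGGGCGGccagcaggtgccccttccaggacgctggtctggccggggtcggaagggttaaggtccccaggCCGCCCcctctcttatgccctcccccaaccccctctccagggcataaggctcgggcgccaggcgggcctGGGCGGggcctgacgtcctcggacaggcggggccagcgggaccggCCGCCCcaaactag
Itgb5: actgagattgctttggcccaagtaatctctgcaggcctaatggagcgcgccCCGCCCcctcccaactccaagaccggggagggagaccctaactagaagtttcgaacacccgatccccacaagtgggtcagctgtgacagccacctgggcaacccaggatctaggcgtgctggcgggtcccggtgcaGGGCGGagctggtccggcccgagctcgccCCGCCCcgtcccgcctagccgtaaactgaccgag
Itga3: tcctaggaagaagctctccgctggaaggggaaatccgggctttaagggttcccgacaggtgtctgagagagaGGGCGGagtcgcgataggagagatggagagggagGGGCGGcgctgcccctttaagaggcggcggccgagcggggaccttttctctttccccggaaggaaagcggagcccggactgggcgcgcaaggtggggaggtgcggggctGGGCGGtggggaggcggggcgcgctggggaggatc
The window of Hspg2 held 5 GC boxes and 20 CpG dinucleotides, that of Lama5 held 4 and 19, that of Itgb5 held 3 and 18, and that of Itga3 held 3 and 22. In these counts the window shown for Itga3, the lowest of these members, was much like those of the 3 highest. None of the 4 held a TATA box (TATAAA on either strand) or a CCAAT box (CCAAT on either strand). A GC box stood in 43.3% of the 30 windows of the 26 members with an entry, and in 32.7% of 32841 windows of all genes. The median window held 10 CpG dinucleotides among the members and 6 among all genes. Itga3 has 2 annotated starts, and the window shown is of the one farther upstream. The window of its other start was unlike it, with 1 GC box, 5 CpG dinucleotides and 1 CCAAT box. Windows of 1 gene can overlap, and these are descriptions of letters only.

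Perlecan was the member with the highest ratio. Hspg2 encodes a heparan sulfate proteoglycan of basement membranes that is also abundant in cartilage matrix. Its brightest probe set had a signal of 3331 on the Phc2 L307R array against 2091 on the wild-type array, 1.59-fold higher. Its second probe set had 2481 on the Phc2 L307R array against 1664 on the wild-type array, 1.49-fold higher, so the log2 ratios were 0.67 and 0.58 and differed by 0.09. A ratio at least as high was found in 2.59% of measured genes. The spread between replicate cultures is not known, so this ratio shows no difference between the genotypes beyond these 2 arrays. It was the member nearest to Phc2 on chromosome 4, 109 measured genes away on the side of higher position. Of the 20 measured genes nearest to Hspg2, 10 on each side, 13 lay above 0, against 59.1% of all measured genes. Their median was 0.22, against 0.08 for all 691 measured genes of chromosome 4. Of these 20 neighbours 2 were at least 1.5-fold higher, Cela3b at 0.92 and the alkaline phosphatase gene Alpl at 0.72. Among all measured genes 4.20% were. These neighbours were looked at after the value of Hspg2 was seen. Leaving out the members on chromosome 4 takes out Hspg2 itself, so the count of members at least 1.5-fold higher then falls to 0 by construction.

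Among 13 chondrocyte markers 12 were measured, 11 above 0 and 1 below (Sox9 at -0.29, with a second probe set at -0.08). Their median ratio was 0.91 on the log2 scale. Their summed signal, which adds unlike probe sets and is a description only, was 9969 on the Phc2 L307R array against 6468.5 on the wild-type array. The largest ratios were at least 1.69 for Cnmd, at least 1.62 for Matn1, 1.31 for Col11a2 and 1.11 for Snorc, and Col9a2 lay below the floor on both arrays. More cells of a type and more RNA per cell cannot be told apart in such bulk samples, and the part of these markers in the ratio of Hspg2 was not tested.

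The other components that link basement membranes were close to equal. Nid1, the nidogen that bridges laminin and collagen IV, had signals of 10921 in Phc2 L307R and 10543 in wild type at its brightest probe set. That is a log2 ratio of 0.05. A further bright probe set gave 0.21, and the remaining one, below the floor in Phc2 L307R, gave -0.20 or lower. Nid2, its close relative, had 2127.5 in Phc2 L307R and 2118.5 in wild type, a log2 ratio of 0.01 at its single probe set. Both nidogen ratios turned below 0 when centred on all genes or after the loess.

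Fibronectin and tenascin C each gave opposite answers at their probe sets. Fn1 had 25597 on the Phc2 L307R array against 19120 on the wild-type array at its brightest probe set, 1.34-fold higher. At its second probe set it had 1657 in Phc2 L307R and 2089 in wild type, a log2 ratio of -0.33. The mean over both was 0.04. Tnc had 15318 on the Phc2 L307R array against 13256 on the wild-type array at the brightest probe set, a log2 ratio of 0.21. Its second probe set had 698.0 in Phc2 L307R and 1098 in wild type, a log2 ratio of -0.65, so that the mean over both was -0.22. For these genes the sign therefore depends on the probe set. Very bright genes in general lay higher on the Phc2 L307R array. The 280 measured genes with a geometric mean signal of at least 10000, Fn1, Tnc, Nid1 and Itgav among them, had a median log2 ratio of 0.18, and 80% of them lay above 0. Tnc also lies on chromosome 4, 226 measured genes from Phc2 on the side of lower position.

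**Figure D2:**
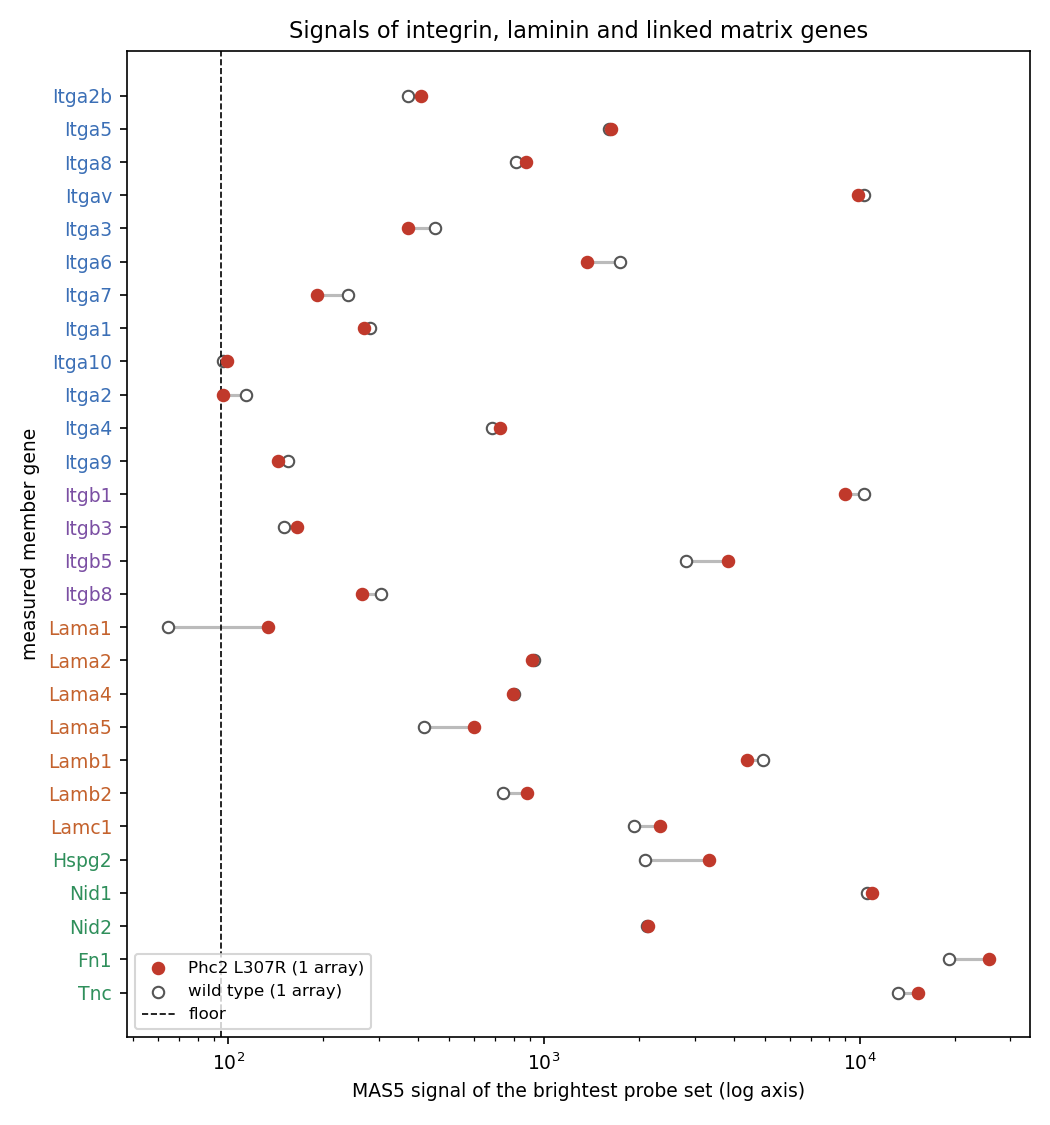
Signal of the brightest probe set of each measured member (log axis) on the Phc2 L307R array (filled) and the wild-type array (open), with the floor as a dashed line. Hspg2, Fn1, Itgb5 and Lama5 lie to the right in Phc2 L307R, Itga3, Itga6 and Itga7 to the left, and in wild type only Lama1 lies below the floor.

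Of the 10 laminin chains, 7 were measured, 4 above 0 and 3 below, and their median was 0.25. The chains of the common fibroblast laminins are Lama2 and Lama4 among the alpha chains, with Lamb1, Lamb2 and Lamc1. Lama2, the chain of muscle basement membranes whose loss causes muscular dystrophy in mice, had 915.7 in Phc2 L307R and 926.2 in wild type, a log2 ratio of -0.02. Lama4, a chain of vessels and mesenchyme, had 797.3 in Phc2 L307R and 801.5 in wild type, a log2 ratio of -0.01. Its second probe set gave 0.23. Both alpha chains were thus nearly equal between the arrays at their brightest probe sets.

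Lama5, the widespread alpha chain of mature basement membranes, had 598.2 on the Phc2 L307R array against 415.2 on the wild-type array, 1.44-fold higher. Its second probe set, with 223.9 in Phc2 L307R and 214.2 in wild type, gave a log2 ratio of only 0.06. Lama1, the alpha chain of the earliest embryonic basement membranes, had 133.8 in Phc2 L307R, while its 64.3 in wild type lay below the floor, so it was at least 1.41-fold higher. Without a floor its log2 ratio was 1.06, and with the floor at the 40th percentile it was also 1.06, the only member then past 2-fold. Neither array exceeded the floor for the epithelial chains Lama3 and Lamb3 or for Lamc3. The higher alpha ratios thus belonged to a chain near the floor and to a chain whose probe sets were both above 0 but far apart in size. Epithelial cells are a known source of Lama1 and Lama5. Of 13 epithelial markers 4 were measured, with a median log2 ratio of -0.13, or 0.06 with the floor at the 60th percentile. Epcam, Cdh1, Esrp1, Grhl2 and Trp63 were among those below the floor on both arrays. The summed signal of the list was 2723 in Phc2 L307R and 2672.5 in wild type. Krt18 was at -0.48, Krt5 at -0.31, Krt19 at 0.29 and Krt8 at 0.06, with a further Krt8 probe set at -0.34. The part of epithelial cells in the ratios of Lama1 and Lama5 was not tested.

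Lamb1, the beta chain of embryonic laminins, had the widest disagreement between probe sets of any member. Its brightest probe set had 4401 in Phc2 L307R and 4934 in wild type, a log2 ratio of -0.16. A second had 1525 in Phc2 L307R and 2906 in wild type, 1.91-fold lower in Phc2 L307R, and another had 1780 in Phc2 L307R and 1501 in wild type, a log2 ratio of 0.25. These 3 values span 1.18 on the log2 scale, 1 higher and 2 lower, so no single ratio describes the gene. Lamb2, the beta chain of neuromuscular and kidney basement membranes, had 882.4 on the Phc2 L307R array against 742.5 on the wild-type array, a log2 ratio of 0.25. Lamc1, the gamma chain shared by most laminins, had 2321 on the Phc2 L307R array against 1924 on the wild-type array. Its log2 ratio was 0.27, and its second probe set, with 528.4 in Phc2 L307R and 367.8 in wild type, gave 0.52. Lamc1 was thus higher at both probe sets, by less than 1.5-fold at each.

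**Figure D3:**
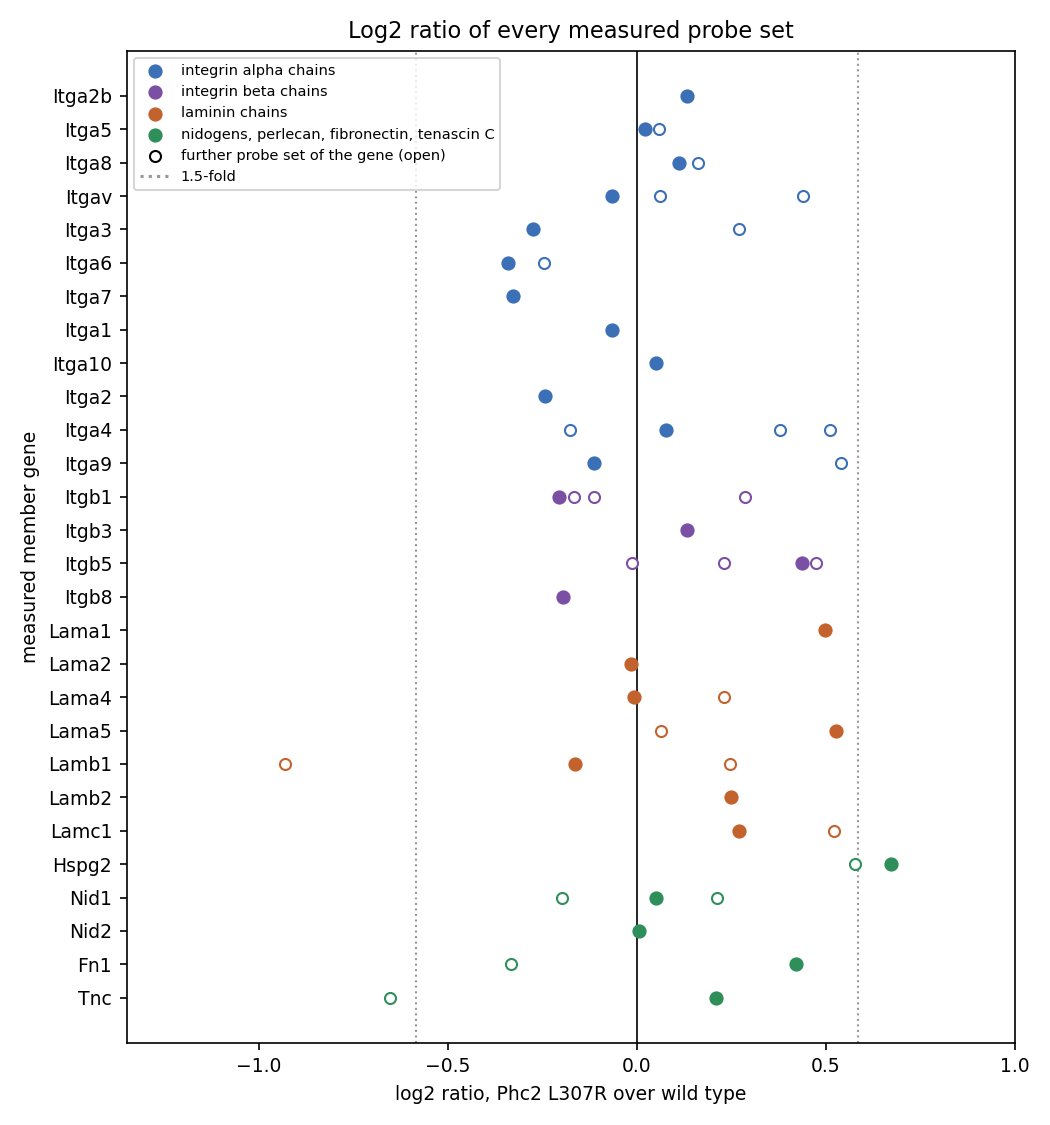
Log2 ratio, Phc2 L307R over wild type, of every measured probe set of the 28 measured members, with the brightest filled and further ones open, and dotted lines at 1.5-fold. The probe sets of Hspg2, Lamc1, Lama5 and Itga6 lie on 1 side of 0, and those of Lamb1, Fn1, Tnc, Itga9 and Itgb1 on both.

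Beside the lack of replicate cultures, disagreement between probe sets was a further limit on single members. Agreement between them does not stand in for replicates. Among the 17 measured members with at least 2 measured probe sets, all of these lay on the same side of 0 in 6 (Itga5, Itga6, Itga8, Lama5, Lamc1 and Hspg2) and on both sides in 11. The other 11 measured members rested on 1 measured probe set. Of the 54 measured member probe sets, 1 was at least 1.5-fold higher (a probe set of Hspg2) and 2 were at least 1.5-fold lower (1 each of Lamb1 and Tnc), or 1.85% and 3.70%. Among all 20737 measured probe sets with 1 symbol these shares were 3.88% and 4.79%.

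The 3 alpha chains that bind laminin were each lower in Phc2 L307R at their brightest probe set, by less than 1.5-fold, where 40.9% of all measured genes had a ratio of 0 or below. These chains, Itga3, Itga6 and Itga7, pair mainly with Itgb1 and hold cells to basement membranes. Itga6 had 1370 in Phc2 L307R and 1734 in wild type, 1.27-fold lower in Phc2 L307R. Its second probe set had 792.6 in Phc2 L307R and 939.5 in wild type, and the log2 ratios were -0.34 and -0.25. Itga6 was the only one of the 3 with a second measured probe set on the same side. Itga7, the laminin receptor of muscle, had 190.6 in Phc2 L307R and 239.4 in wild type, a log2 ratio of -0.33 at a single probe set. Itga3, common in epithelia, had 371.9 in Phc2 L307R and 449.9 in wild type, a log2 ratio of -0.27, while its second measured probe set gave 0.27, so that the mean over both was -0.0022. The median of the 3 was -0.33 and stayed between -0.39 and -0.23 under the 10 alternatives. Lowering, raising or dropping the floor, and leaving out _x_at and _s_at probe sets or members on chromosome 4, left all 3 ratios unchanged. About 10.2% of all measured genes had a ratio as low as that of Itga6. Each of these differences is near the SD of 0.32 between probe sets, which does not hold the spread between cultures. Skeletal muscle also expresses Itga7, and 7 of its 10 markers were measured, with a median of 0.14 and a summed signal of 15912 in Phc2 L307R against 13298 in wild type. The markers of largest ratio were Acta1 at 0.51, Myod1 at 0.29, Myh3 at -0.22 and Ttn at -0.15. The part of muscle cells in the ratio of Itga7 was not tested.

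The alpha chains that recognise the RGD motif of fibronectin and vitronectin were close to equal. Itga5, the classical fibronectin receptor chain, had 1632 in Phc2 L307R and 1606.5 in wild type, a log2 ratio of 0.02, with 0.06 at its second probe set. Itgav, the chain that serves several beta partners and activates latent TGF-beta, had 9877.5 in Phc2 L307R and 10346 in wild type at its brightest probe set, a log2 ratio of -0.07. Its further probe sets gave 0.44 and 0.06. Itga8, a chain of mesenchyme and kidney development that binds nephronectin, had 877.2 in Phc2 L307R and 812.4 in wild type, a log2 ratio of 0.11, with 0.16 at its second probe set. Itga2b, the platelet chain, had 407.7 in Phc2 L307R and 371.7 in wild type, a log2 ratio of 0.13. Most platelet and megakaryocyte markers lay below the floor on both arrays. Of 7 with a probe set 2 were measured, Pf4 at 0.04 or more and Gp1bb at -0.05, and Ppbp, Gp9, Gp5, Gp6 and Treml1 were not. The summed signals of that list, 649.8 in Phc2 L307R and 559.4 in wild type, are mostly made of signals under the floor, so no order is read from them. Gp5 and Gp6 lay just under the floor in Phc2 L307R, at 92.3 and 88.1. The part of platelets or megakaryocytes in the signal of Itga2b was not tested.

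Of the collagen-binding chains, Itga1 and Itga10 were close to equal and Itga2 was lower in Phc2 L307R, by less than 1.5-fold. Itga1 had 268.3 in Phc2 L307R and 280.6 in wild type, a log2 ratio of -0.06. Itga2 had 95.9 in Phc2 L307R and 113.5 in wild type, a log2 ratio of -0.24. Itga10 had 99.2 in Phc2 L307R and 95.8 in wild type, a log2 ratio of 0.05. The signals of Itga2 and Itga10 lay close to the floor. Itga4, a receptor for fibronectin and Vcam1, had 724.3 in Phc2 L307R and 686.2 in wild type, a log2 ratio of 0.08. Its 3 further measured probe sets gave -0.18, 0.38 and 0.51. Itga9, which binds tenascin C, had 143.3 in Phc2 L307R and 155.0 in wild type, a log2 ratio of -0.11, but its second probe set gave 0.54. Both Itga4 and Itga9 thus had probe sets on either side of 0.

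Among the beta chains, Itgb5 stood highest. This chain pairs with Itgav as a vitronectin receptor. At its brightest probe set it had 3819.5 on the Phc2 L307R array against 2822 on the wild-type array, 1.35-fold higher. A second probe set had 2510 in Phc2 L307R and 1808.5 in wild type, 1.39-fold higher. The 2 others, both of the _x_at type whose probes can bind several transcripts, gave log2 ratios of 0.23 and -0.01. A ratio as high as the 0.44 of the brightest was found in 9.34% of all measured genes. Itgb1, the common partner of most alpha chains, had 2 bright probe sets that opposed each other. One had 8944 in Phc2 L307R and 10312 in wild type, a log2 ratio of -0.21. The other had 10331 in Phc2 L307R and 8468 in wild type, a log2 ratio of 0.29. The dimmer 2 of its measured probe sets gave -0.17 and -0.11 or lower, so no direction can be given for Itgb1. Itgb8, which pairs with Itgav, had 265.0 in Phc2 L307R and 303.6 in wild type, a log2 ratio of -0.20. Itgb3, the beta chain of platelets and osteoclasts, had 164.6 in Phc2 L307R and 150.2 in wild type, a log2 ratio of 0.13.

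The alpha chains restricted to leukocytes, and the beta chains typical of leukocytes and epithelia, had no signal above the floor. The 12 members below it on both arrays were Itgae, Itgal, Itgam, Itgax, Itgb2, Itgb2l, Itgb4, Itgb6, Itgb7, Lama3, Lamb3 and Lamc3. Their probe sets had signals of 4.4 to 75.7 in Phc2 L307R and of 4.6 to 61.3 in wild type, and signals under the floor have no order. Of 14 leukocyte and macrophage markers 8 were measured, 6 above 0 and 2 below (Cd14 at -0.41 and Cd68 at -0.11), with a median log2 ratio of 0.36, or 0.17 without _x_at and _s_at probe sets, and a summed signal of 1548 in Phc2 L307R against 1111 in wild type. Laptm5 was at 1.00 with a second probe set at -0.06, Csf1r and Lyz2 were both at 0.57 and Adgre1 was at 0.55, while Ptprc, C1qa, C1qb, Tyrobp, Fcer1g and Cd52 lay below the floor.

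Beside the members, other genes of the same contacts had medians above that of all measured genes. The cytoplasmic partners of integrins, 20 measured of 24 listed, had a median of 0.15, 12 above 0 and 8 below. The kinase Src was the highest, with 560.2 on the Phc2 L307R array against 286.3 on the wild-type array, a log2 ratio of 0.97, and its second probe set gave 0.96. Sharpin, an integrin inhibitor, was at 0.59 with a second probe set at -0.36, the adaptor Bcar1 at -0.42 and the kinase Ptk2b at 0.35 with a second probe set at -0.15. Src and Sharpin were the 2 genes of this list past 1.5-fold.

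Other integrin ligands had a median of 0.23 over 14 measured of 17, with 11 above 0 and 3 below. Ltbp1, which holds latent TGF-beta in the matrix, was the only one past 1.5-fold, with 1954 in Phc2 L307R and 2949 in wild type, a log2 ratio of -0.59, and -0.55 at its second probe set. Thbs2, a thrombospondin, was at 0.58, the leukocyte adhesion molecule Icam1 at 0.55 and Npnt, the nephronectin that binds Itga8, at 0.54. Further probe sets of Thbs2 and Npnt reached down to -0.21 and -0.33.

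Other basement membrane genes and laminin receptors had a median of 0.29 over 16 measured of 18, with 13 above 0 and 3 below. Fibulin 1 (Fbln1) was at 1.07 and the only one past 2-fold, with a second probe set at 0.41. The syndecan Sdc4, a co-receptor for fibronectin, was at 0.92 with a second probe set at -0.22. Col18a1, a basement membrane collagen, was at 0.87 and agrin (Agrn) at 0.51. The tetraspanins and Cd47, membrane partners of integrins, had a median of 0.31 over 6 genes, 5 above 0, with Cd47 at 0.47, Cd82 at 0.37 (-0.50 at its second probe set), Cd81 at 0.33 and Tspan4 at 0.30. All of these medians exceeded the -0.07 of the integrin chains, and the 0.23 of the laminin and other matrix members lay among them. Fibroblast markers had a median of 0.36, 8 above 0 and 2 below. Dcn was at 0.88, Col3a1 at 0.56, Col1a2 at 0.45 and Vim at 0.42 with a further probe set at -0.22. Pdgfra and S100a4 were both at -0.12, but a further probe set of Pdgfra was at 0.77. Their summed signal was 136240 in Phc2 L307R against 103312 in wild type. Quantile normalization lowered that median to 0.15. Smooth muscle markers had a median of 0.39, with all 8 above 0 and Myh11 at 0.71, Lmod1 at 0.46, Tagln at 0.42 and Smtn at 0.40. Their sum was 61501.5 in Phc2 L307R against 47128 in wild type. The part of these markers in the ratios of the members was not tested.

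**Figure D4:**
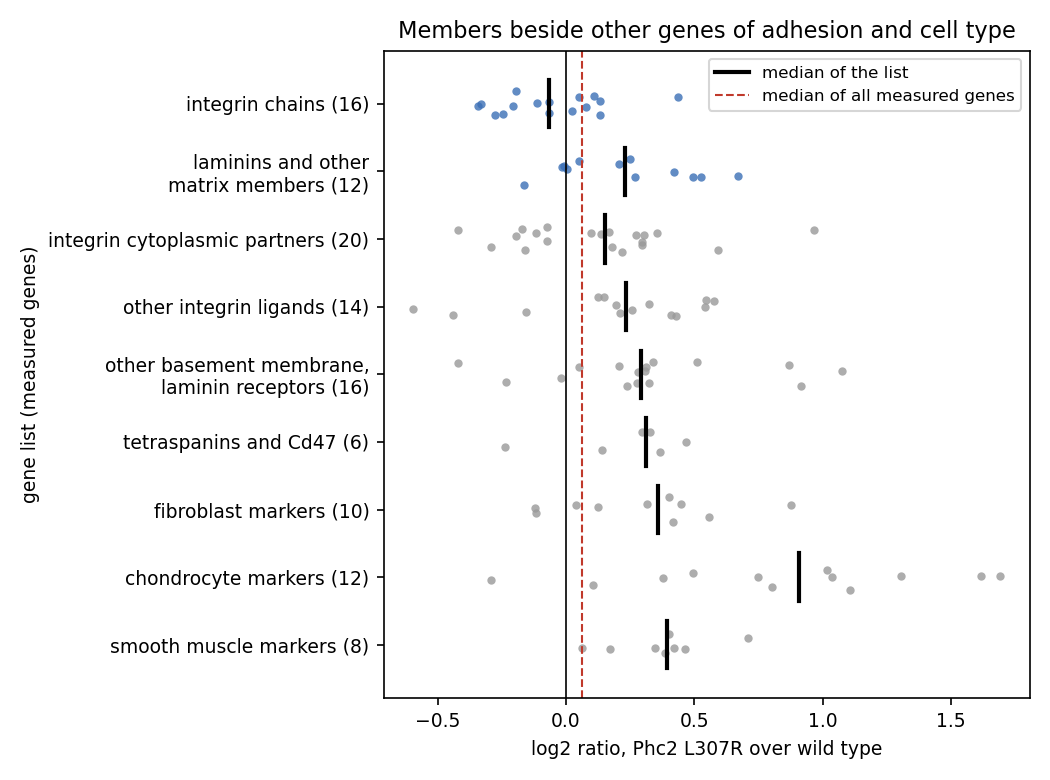
Log2 ratio, Phc2 L307R over wild type, of the measured genes of each list (dots, spread vertically for legibility), with the median of each list as a black bar and that of all measured genes as a dashed line. The bar of the integrin chains lies at -0.07, left of the dashed line at 0.06. Those of the other lists shown lie right of it, and that of the chondrocyte markers lies farthest right at 0.91. Of the marker lists not shown, epithelial (-0.13, 4 measured), endothelial (-0.01, 4 measured) and platelet markers (-0.01, 2 measured) had medians left of the dashed line. Leukocyte, osteoblast, skeletal muscle and Schwann markers had medians right of it.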

How the data were processed

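The authors deposited 1 table of linear intensity values, with 45101 probe sets on 2 arrays. Affymetrix Expression Console and MAS5 are listed, without versions, per the submitters' processing notes. How the arrays were scaled was not stated there, though the mean of each array was 500.0 with 2% trimmed at each end. No detection calls were used. The 64 control probe sets were left out. Of the others 34945 carried 1 symbol, 932 several and 9160 none. A RefSeq gene table of GRCm38.p6 was used to update the symbols and matched 34741, among them all 86 member probe sets. That table served for names and gene order, and promoter windows come from the RefSeq promoter table of the same build. The array's own build was not needed.

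Signals were taken to log2, and genes were counted at 1.5-fold and 2-fold. With 1 array per genotype no test was run. All measured members were named, and up to 4 measured genes of largest absolute ratio in each further list. Further chondrocyte, epithelial, platelet and leukocyte markers were named by whether they lay above the floor. Cela3b and Alpl were named after their values were seen, as were Sox9, Cd14, Cd68, Pdgfra and S100a4, which lay below 0 at their brightest probe sets. The members and lists were chosen with earlier results of these data known. Platelet markers are listed whole. Endothelial markers, of which Pecam1, Cdh5, Tie1, Cldn5, Esam and Vwf lay below the floor, had a median of -0.01 over 4 measured of 10. That median was 0.25 without _x_at and _s_at probe sets. Emcn was at -1.15, Tek at 0.44 or more, Egfl7 at -0.07 with a further probe set at 0.67, and Kdr at 0.05. Osteoblast markers had a median of 0.61, or 0.02 with the floor at the 60th percentile, over 4 measured genes (Ibsp 2.12, Alpl 0.72, Sp7 at least 0.50, Omd -0.33). Schwann and glial markers had a median of 0.11 over 4 (Mbp -0.32, Sox10 0.26 with a second probe set at -0.38, Erbb3 0.17, Gfap at least 0.05). The calculation was tested on simulated arrays with planted ratios. Python 3.11.15 with pandas 2.3.3 and statsmodels 0.14.6 was used.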

Additional observations from a re-analysis of the deposited data

How the results depend on the processing

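Several kinds of choice were varied one at a time. Scaling was changed to quantile normalization, to a loess on mean signal (span 0.4) and to centring all measured genes on their median. The floor was lowered to the 40th percentile, raised to the 60th, dropped, or added to each signal. Probe sets were averaged by gene, _x_at and _s_at probe sets were left out, and so were members on chromosome 4. The members' median log2 ratio lay between -0.03 (centred) and 0.05, and it was -0.01 after the loess, so its sign is not settled. Centring took the median of all measured genes from 0.06 to 0 by construction. Quantile normalization moved that median by -0.01 and the loess by -0.03. The count of members at least 1.5-fold higher, 1 (Hspg2) as reported, was 2 under the lower floor and with none, where Lama1 joined it and made 1 member past 2-fold instead of 0. It was 0 without _x_at and _s_at probe sets, where Hspg2 had a log2 ratio of 0.58. Without the members on chromosome 4 it was 0 by construction, because Hspg2 is then left out. The count at least 1.5-fold lower was 0 in every other setting but 1 without _x_at and _s_at probe sets, where Lamb1 was then represented by its probe set at -0.93. Of the 28 measured members, 20 kept 1 sign under all alternatives that gave a value, 11 higher and 9 lower. The others were Itga5, Itgav, Itga9, Itga10, Lama4, Nid1, Nid2 and Tnc. The settings of the floor and of chromosome 4 cannot turn the sign of a member, so a kept sign does not settle a direction. Itga3, Itga4, Itgb1, Itgb5, Lamb1 and Fn1 kept theirs with probe sets on both sides of 0. Medians of small groups also turned. The laminin alpha chains were at 0.24 and, under the higher floor, at -0.01, and the laminin beta chains at 0.04 and at -0.34 without _x_at and _s_at probe sets. The number of arrays, 1 per genotype, limits every value here. No paired analysis was possible because each genotype has 1 array.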
